A study of Homo sapiens with 8 samples.

Results

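The endoplasmic reticulum genes described here are 46 genes that act on proteins entering the secretory pathway. They were chosen by name for their known function, with earlier results of these data known, so counts over the set carry no test. All 46 were matched by symbol in a table of 25066 genes, MANF under the older symbol ARMET. They fall into 3 roles, with 14 genes of the translocon and signal peptidase, 22 genes of chaperones and folding, and 10 genes of endoplasmic reticulum-associated degradation. All 46 passed the filter on low levels, which kept 12533 genes whose mean log2 level over all libraries was at least 4.20.

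Secreted and membrane proteins are threaded into the endoplasmic reticulum through the Sec61 channel, lose their signal peptide there, and fold with the help of the Hsp70 chaperone BiP, the Hsp90 chaperone GRP94, lectin chaperones and disulfide enzymes. Chains that fail to fold are recognised, drawn back across the membrane and ubiquitinated for the proteasome. The unfolded protein response matches this capacity to load through the sensors IRE1, PERK and ATF6, and in the B lineage its IRE1 branch, through the transcription factor XBP1, builds the secretory apparatus of antibody-producing plasma cells.

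RNA was sequenced from TMD8, an established cell line from an activated B cell-like (ABC) human lymphoma of the diffuse large type, transduced with lentivirus to express Cas9 in all groups. Cells stably carried a control guide RNA (sgCTRL, labelled KLHL14(+/+)) or a guide targeting KLHL14 (sgKLHL14, labelled KLHL14(-/-)), a Kelch-family adaptor of ubiquitin ligases, and received DMSO or ibrutinib, a covalent inhibitor of the kinase BTK, at 2 nM for 24 h. The 4 groups held 2 libraries each, and nothing in the labels says whether these came from separate cultures or whether the edited cells are 1 clone, so p-values measure only the spread between libraries, which may be technical. A level below is the deposited log2 of normalised reads, and a change is a difference of such levels.

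The KLHL14 level was 12.07 and 12.06 in the sgCTRL and 12.19 and 12.33 in the sgKLHL14 libraries in DMSO, and 12.30 and 12.30 against 13.16 and 13.16 in ibrutinib. KLHL14 RNA was therefore not lower in the libraries labelled sgKLHL14. A count over the whole gene does not read a small Cas9 edit, and no value used here shows the edit itself. Library totals ran from 12333876 to 23467110 reads, and the members had between 72 and 23564 reads in a library, with 21 of 46 under 1000 reads in some library. All 6 B cell markers were kept, with mean levels of 11.39 to 15.58, and 0 of 5 myeloid genes passed the level filter. Of 5 T cell genes, CD3D and CD3E were at 0 in every library and CD3G and CD2 had at most 1 read, while CD8A was kept with 19 to 36 reads and rose by 0.69 in ibrutinib over both guides (limma adjusted p = 0.00472). The summed level of the 5 was 5.24 to 5.36 in the DMSO and 5.66 to 6.13 in the ibrutinib libraries. Of 5 epithelial and fibroblast genes, EPCAM and KRT18 had at most 1 read and 3 were kept. Of these KRT8 (90 to 272 reads) fell by 0.53 (adjusted p = 0.000105), COL1A1 (39 to 114 reads) rose by 0.98 (adjusted p = 6.20e-06) and COL1A2 (20 to 67 reads) by 0.49 (adjusted p = 0.0460, and 0.25 with adjusted p = 0.278 without sgCTRL DMSO replicate 1). The COL1A2 call was also lost without any 1 of sgCTRL ibrutinib replicate 1, sgKLHL14 DMSO replicate 2 and sgKLHL14 ibrutinib replicate 1 (0.131 to 0.157), with no level filter (0.174), quantile scaling (0.116), no variance trend (0.123) and voom (0.0606). The summed level of these 5 was 8.56 to 8.88 in DMSO and 8.67 to 8.83 in ibrutinib. The part of other cell types in the changes below was not tested.

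More of these genes were higher than lower in ibrutinib, while about as many of all genes were higher as lower. Averaged over both guides, 25 of 46 rose, 8 fell and 13 did not pass (limma, Benjamini-Hochberg adjusted p under 0.05 over all kept genes). Of all kept genes 27.0% rose and 25.4% fell in that comparison. The median change of the 46 was 0.17, against 0.017 for all kept genes. With sgCTRL 16 rose and 8 fell, where the background was 18.1% and 17.0%. With sgKLHL14 22 rose and 6 fell, where it was 19.9% and 19.4%. The count of genes that rose with sgCTRL was 9 without either sgCTRL ibrutinib library, and the share of all kept genes that rose was then 11.8% without replicate 1 and 11.9% without replicate 2. With both guides separately, 16 genes rose and 6 fell, 2 passed with sgCTRL alone and 6 with sgKLHL14 alone. The same held for 14.0%, 13.8%, 7.36% and 11.5% of kept genes in that order.

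The treatments did not overlap for 25 genes. In 19 of 46 all 4 ibrutinib libraries lay above all 4 DMSO libraries, as did 21.4% of kept genes, and in 6 all 4 lay below, as did 21.2%. By role, 7 of 14 translocon and signal peptidase genes rose and 2 fell over both guides (median 0.11). Of 22 chaperone and folding genes 13 rose and 3 fell (median 0.22), and of 10 degradation genes 5 rose and 3 fell (median 0.15). Beside each of these counts, 27.0% of kept genes rose and 25.4% fell. The degradation genes spread widest, from -0.88 for EDEM1 to 1.27 for DERL3. RNA came from whole cultures, so fewer cells of a type and less RNA per cell cannot be told apart.

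**Figure D1:**
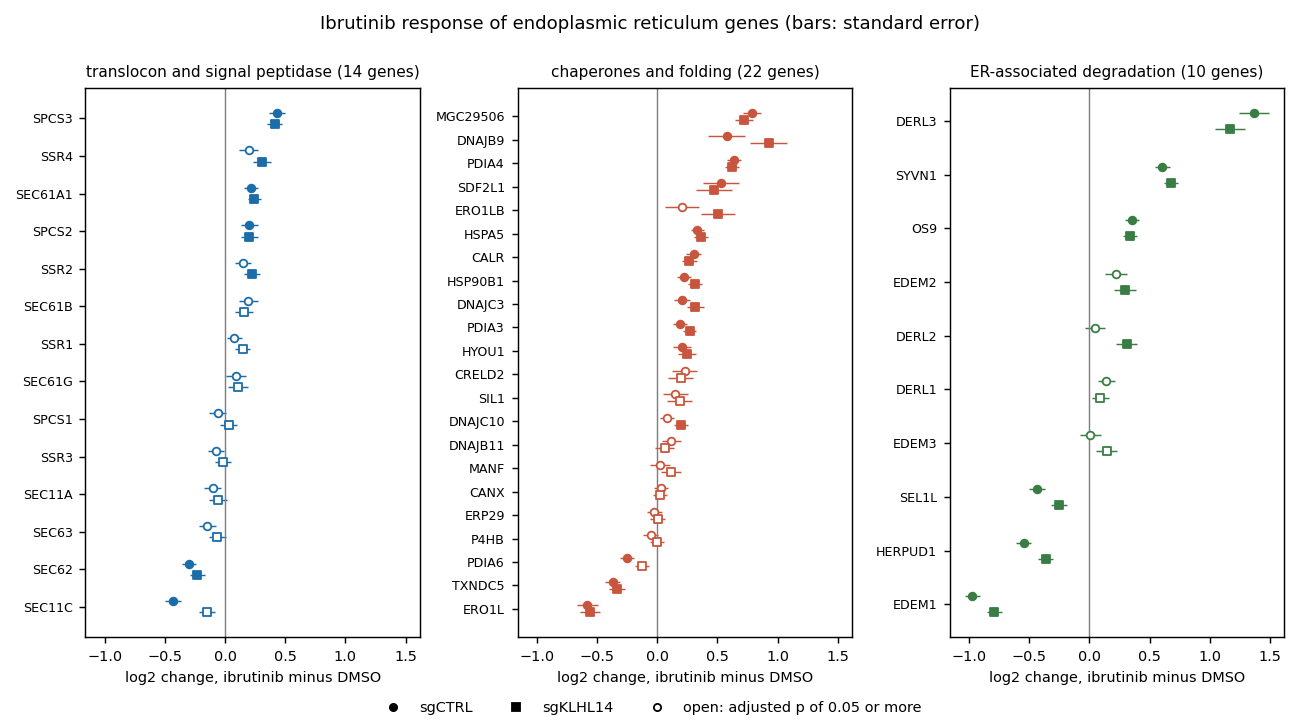
Log2 change in ibrutinib against DMSO (x axis) for each of the 46 genes (y axis), by role, with sgCTRL as circles and sgKLHL14 as squares, bars showing the standard error and filled symbols an adjusted p under 0.05. Most chaperone genes sit right of 0 with both guides, and the degradation genes run from EDEM1 at the left end to DERL3 at the right.

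**Figure D2:**
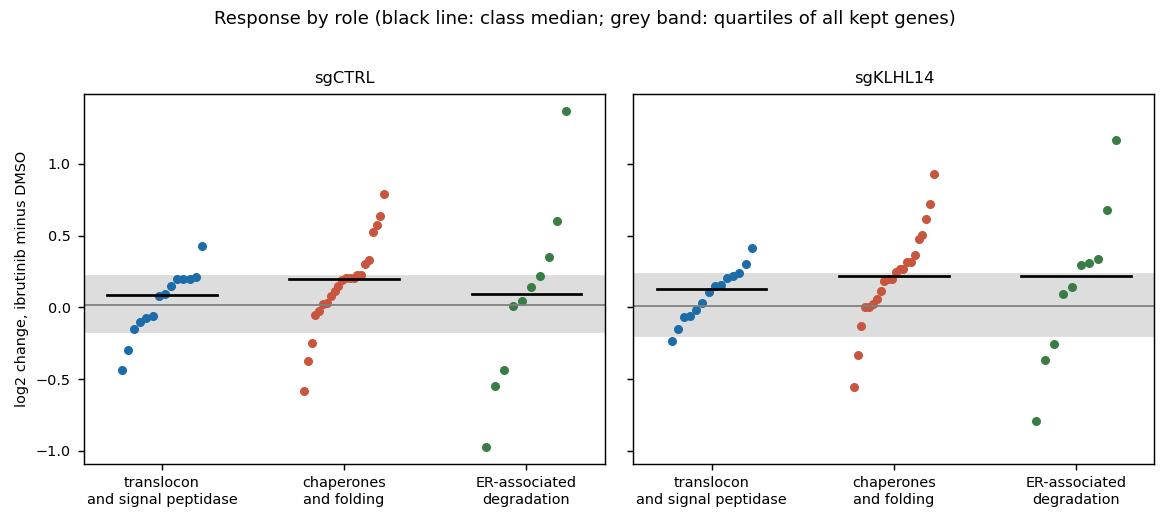
Log2 change in ibrutinib against DMSO (y axis) of every gene by role (x axis) in sgCTRL and sgKLHL14 cells, with the class median as a black line and the median and quartiles of all 12533 kept genes as a grey line and band. The chaperone medians of 0.20 and 0.22 lie near the upper quartile of all genes, at 0.22 and 0.23 (sgCTRL and sgKLHL14).

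Plasma cell markers moved in the same libraries. Of 6 markers, IGJ (the J chain of secreted antibody), TNFRSF17, SDC1, PRDM1 and XBP1 rose in ibrutinib over both guides, by 0.31 for PRDM1 to 2.70 for IGJ, while IRF4, the most abundant of them, fell by 0.72 (limma adjusted p of 9.36e-11). None of the 6 was at 0. The summed level of the 6, which IRF4 dominates, was 16.05 to 16.10 in sgCTRL and 16.15 to 16.23 in sgKLHL14 cells in DMSO, and 15.37 to 15.40 and 15.76 to 15.80 in ibrutinib. IGJ was at 7.17 and 7.28 with sgCTRL and 7.02 and 6.83 with sgKLHL14 in DMSO, and at 10.10 and 10.02 with sgCTRL and 9.51 and 9.50 with sgKLHL14 in ibrutinib. Its libraries did not overlap between treatments. The part of a plasma cell-like state in the changes of the endoplasmic reticulum genes was not tested.

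At the entry to the endoplasmic reticulum, the largest pore subunit and 2 accessory subunits of the signal peptidase rose, while the post-translational factor SEC62 and 1 catalytic peptidase subunit fell. SPCS3, the accessory subunit that the peptidase needs for activity, was at 11.51 and 11.68 with sgCTRL and 11.64 and 11.63 with sgKLHL14 in DMSO, and at 12.05 and 12.00 with sgCTRL and 12.09 and 12.01 with sgKLHL14 in ibrutinib. The treatments did not overlap, and over both guides SPCS3 rose by 0.42 (SE 0.046, adjusted p = 3.26e-07), the largest rise among the 14. SEC61A1, which forms the channel, was at 12.57 and 12.58 with sgCTRL and 12.71 and 12.70 with sgKLHL14 in DMSO and at 12.79 and 12.79 with sgCTRL and 12.92 and 12.98 with sgKLHL14 in ibrutinib. It rose by 0.23 (SE 0.039, adjusted p = 7.36e-05). The lowest ibrutinib library was above the highest DMSO library for this gene.

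The small channel subunit SEC61B also passed over both guides (0.18, adjusted p = 0.00939). It did not without sgCTRL ibrutinib replicate 1 (0.0544), without sgKLHL14 ibrutinib replicate 1 (0.0682), without the level filter (0.0569) or without the variance trend (0.0867). SEC61G, the other small subunit, changed by 0.099 and did not pass (adjusted p = 0.170). SEC62, which serves proteins delivered after translation, was at 11.95 and 11.97 with sgCTRL and 11.77 and 11.88 with sgKLHL14 in DMSO and at 11.63 and 11.68 with sgCTRL and 11.62 and 11.57 with sgKLHL14 in ibrutinib. It fell by 0.27 (SE 0.044, adjusted p = 4.36e-05). Its partner SEC63, the J-domain protein that brings BiP to the channel, changed by -0.11 without passing (adjusted p = 0.0815).

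Of the 4 subunits of the translocon-associated protein complex, which helps chains into the channel, 3 passed as higher over both guides. Of all kept genes 27.0% did. SSR4 was at 10.23 and 10.18 with sgCTRL and 10.43 and 10.22 with sgKLHL14 in DMSO and at 10.39 and 10.41 with sgCTRL and 10.65 and 10.61 with sgKLHL14 in ibrutinib, and rose by 0.25 (SE 0.055, adjusted p = 0.000762). The SSR4 level in sgKLHL14 DMSO replicate 1 was above that of both sgCTRL ibrutinib libraries. SSR2 rose by 0.18 (adjusted p = 0.00322). SSR1 rose by 0.11 (adjusted p = 0.0459) and was 0.074 (adjusted p = 0.204) without sgCTRL DMSO replicate 1. The SSR1 adjusted p ranged from 0.054 to 0.17 without any 1 of sgCTRL ibrutinib replicate 1 or 2, sgKLHL14 DMSO replicate 1 or 2, or sgKLHL14 ibrutinib replicate 1, and was 0.0843 with no level filter and 0.128 with no variance trend. SSR3 changed by -0.045 and did not pass (adjusted p = 0.441).

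The signal peptidase exists with 1 of 2 catalytic subunits, SEC11A or SEC11C, and their levels differed in behaviour. SEC11C was at 12.08 and 12.08 with sgCTRL and 12.26 and 12.18 with sgKLHL14 in DMSO, and at 11.61 and 11.68 with sgCTRL and 12.17 and 11.97 with sgKLHL14 in ibrutinib. Only the sgCTRL ibrutinib libraries stood well below the rest. SEC11C fell by 0.43 with sgCTRL (SE 0.068, adjusted p = 5.62e-05), and its change of -0.15 with sgKLHL14 did not pass (adjusted p = 0.0885). The difference between the responses was 0.28 (SE 0.096, unadjusted p = 0.00787, adjusted p = 0.718) and did not pass either. SEC11A changed by -0.081 over both guides (adjusted p = 0.187). The accessory subunit SPCS2 rose by 0.20 over both guides (adjusted p = 0.00222), from 10.66 and 10.74 with sgCTRL and 10.73 and 10.72 with sgKLHL14 in DMSO to 10.86 and 10.94 with sgCTRL and 10.996 and 10.853 with sgKLHL14 in ibrutinib. SPCS1, an accessory subunit that the activity does not require, changed by -0.015 (adjusted p = 0.827).

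BiP and its partners all had a positive change over both guides, as did 6540 of 12533 kept genes. Of the 9 genes of this group, 6 passed as higher, where 27.0% of kept genes did. HSPA5, which encodes BiP, was at 13.28 and 13.23 with sgCTRL and 13.33 and 13.30 with sgKLHL14 in DMSO and at 13.59 and 13.59 with sgCTRL and 13.71 and 13.65 with sgKLHL14 in ibrutinib. Every ibrutinib library was above every DMSO library, and HSPA5 rose by 0.35, or 1.27-fold (SE 0.04, adjusted p = 5.10e-07). DNAJB9, a J-domain partner that also restrains IRE1, was at 7.17 and 7.70 with sgCTRL and 7.52 and 7.63 with sgKLHL14 in DMSO and at 8.08 and 7.95 with sgCTRL and 8.53 and 8.48 with sgKLHL14 in ibrutinib. It rose by 0.75, or 1.68-fold (SE 0.11, adjusted p = 1.02e-05). It had the fewest reads and the widest error of the 46. Its change with sgCTRL, 0.58 (adjusted p = 0.00649), was 0.31 (adjusted p = 0.156) without sgCTRL DMSO replicate 1 and lost the call without sgCTRL ibrutinib replicate 1 too (adjusted p = 0.0586).

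The other partners moved less. SDF2L1, which helps keep BiP clients soluble, rose by 0.50 over both guides (adjusted p = 0.000621), DNAJC3, a J-domain co-chaperone also known as p58IPK, by 0.26 (adjusted p = 0.000180) and HYOU1, a nucleotide exchange factor of BiP, by 0.23 (adjusted p = 0.00121). CRELD2 passed with 0.21 (adjusted p = 0.0221), a call lost without any 1 of sgCTRL DMSO replicate 1, sgCTRL ibrutinib replicate 1, sgKLHL14 DMSO replicate 2 and sgKLHL14 ibrutinib replicate 1 (adjusted p of 0.083 to 0.13), and also with no level filter (0.0701) and no variance trend (0.0777). SIL1, the other exchange factor, changed by 0.17 (adjusted p = 0.0599), the J-domain protein DNAJB11 by 0.088 and the stress-induced secreted protein MANF by 0.07. These last 3 did not pass.

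GRP94 and the lectin chaperone calreticulin rose while calnexin stayed within its error. MGC29506, the table's symbol for MZB1, a B-lineage partner of GRP94 in antibody assembly, was at 10.34 and 10.31 with sgCTRL and 10.75 and 10.54 with sgKLHL14 in DMSO and at 11.13 and 11.09 with sgCTRL and 11.31 and 11.43 with sgKLHL14 in ibrutinib. The 4 groups did not overlap, and it rose by 0.76, or 1.69-fold (SE 0.053, adjusted p = 6.50e-10). HSP90B1, which encodes GRP94, was at 14.59 and 14.65 with sgCTRL and 14.75 and 14.75 with sgKLHL14 in DMSO and at 14.84 and 14.85 with sgCTRL and 15.10 and 15.02 with sgKLHL14 in ibrutinib, and rose by 0.27 (adjusted p = 2.43e-05). CALR, the soluble lectin chaperone, rose by 0.28 (SE 0.045, adjusted p = 2.94e-05). CANX, its membrane-bound relative, ran from 14.46 to 14.54 over all 8 libraries and changed by 0.026 (SE 0.041, adjusted p = 0.611).

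Of 9 disulfide enzymes 4 were higher and 3 lower over both guides, where 27.0% of kept genes rose and 25.4% fell. PDIA4, a protein disulfide isomerase, was at 12.01 and 11.93 with sgCTRL and 12.17 and 12.08 with sgKLHL14 in DMSO and at 12.60 and 12.62 with sgCTRL and 12.75 and 12.74 with sgKLHL14 in ibrutinib. Its treatments were far apart with either guide, and it rose by 0.63 (SE 0.042, adjusted p = 2.71e-10). PDIA3, the isomerase that works with calnexin and calreticulin, rose by 0.23 (adjusted p = 6.49e-05). Their relatives went the other way. TXNDC5 was at 11.27 and 11.37 with sgCTRL and 11.42 and 11.42 with sgKLHL14 in DMSO and at 10.95 and 10.94 with sgCTRL and 11.14 and 11.03 with sgKLHL14 in ibrutinib, and fell by 0.35 (adjusted p = 3.35e-06). PDIA6 was at 13.04 and 13.03 with sgCTRL and 13.14 and 13.09 with sgKLHL14 in DMSO and at 12.77 and 12.81 with sgCTRL and 13.04 and 12.93 with sgKLHL14 in ibrutinib, and fell by 0.19 (adjusted p = 0.000737). The 1 overlap for PDIA6 was sgKLHL14 ibrutinib replicate 1, which lay among the sgCTRL DMSO libraries. PDIA6 passed with sgCTRL (-0.25, limma adjusted p = 0.00249) and not with sgKLHL14 (-0.13, adjusted p = 0.0847). The isomerase P4HB (-0.028) and the thioredoxin-fold chaperone ERP29 (-0.012) did not pass.

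The 2 oxidases that recharge these isomerases moved in opposite directions. ERO1L was at 9.82 and 9.85 with sgCTRL and 9.87 and 9.91 with sgKLHL14 in DMSO and at 9.23 and 9.28 with sgCTRL and 9.41 and 9.25 with sgKLHL14 in ibrutinib, and fell by 0.57 (SE 0.06, adjusted p = 2.03e-07). ERO1LB was at 7.41 and 7.40 with sgCTRL and 7.16 and 7.15 with sgKLHL14 in DMSO and at 7.62 and 7.60 with sgCTRL and 7.58 and 7.73 with sgKLHL14 in ibrutinib, and rose by 0.36 (SE 0.1, adjusted p = 0.00617). The treatments did not overlap for either gene. The sum of their levels was not examined, and ERO1LB stayed the lower per length, at 31.1 to 44.3 normalised reads per kilobase as group means against 116 to 179 for ERO1L. DNAJC10, a disulfide reductase that prepares chains for degradation, rose by 0.14 (adjusted p = 0.00956), which was 0.0524 without sgCTRL ibrutinib replicate 1.

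**Figure D3:**
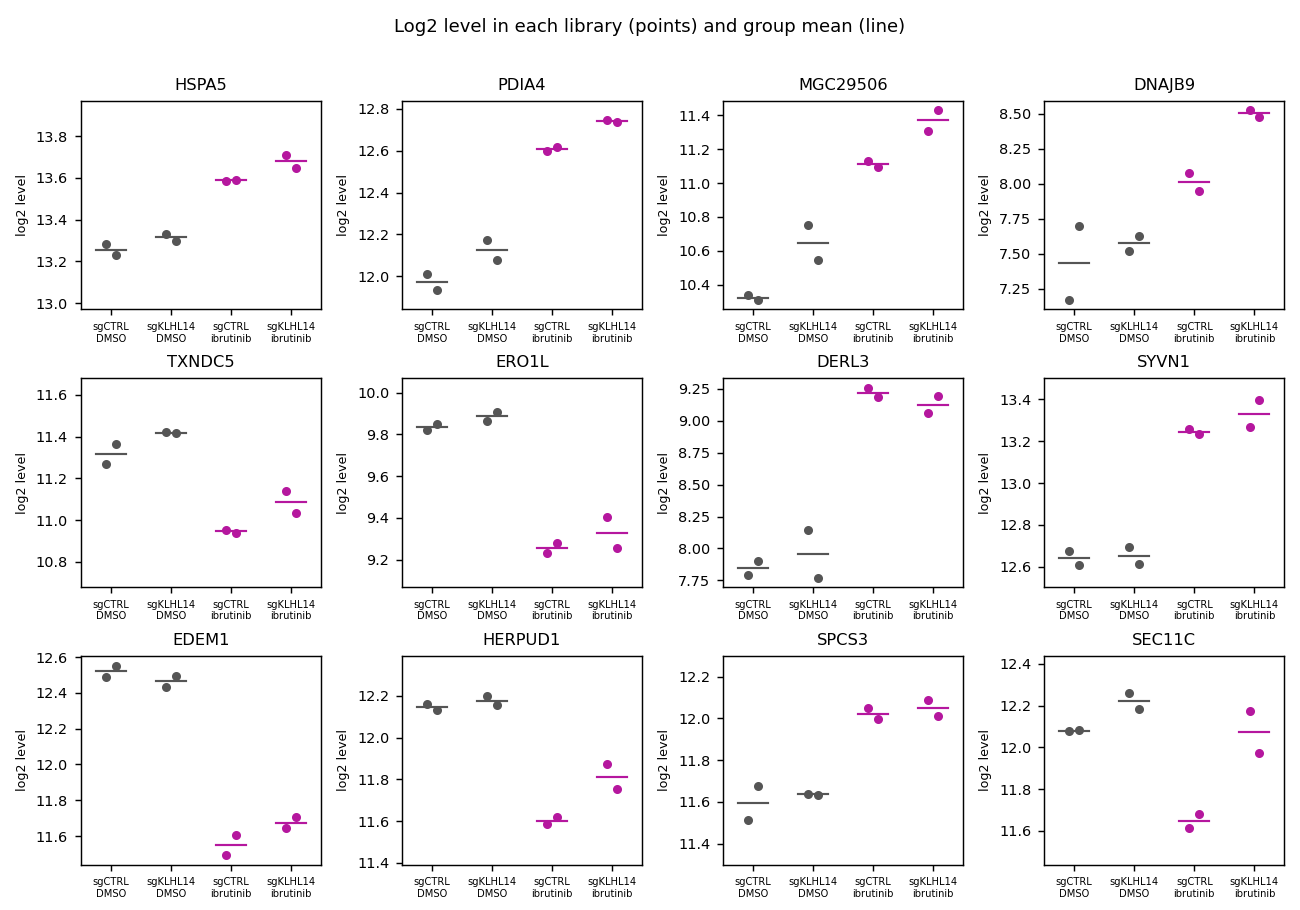
Log2 level (y axis) of 12 of the genes in each library by group (x axis), DMSO in grey and ibrutinib in magenta, with lines at the group means. HSPA5, PDIA4, MGC29506, DERL3, SYVN1 and SPCS3 are higher in all 4 ibrutinib libraries, TXNDC5, ERO1L, EDEM1 and HERPUD1 lower in all 4, and SEC11C is lowest in the sgCTRL ibrutinib libraries.

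Promoters were read for the 42 of 46 genes with an entry among RefSeq promoters of GRCh38.p14, which span 250 bases before to 50 after the start. They were searched on both strands for the ER stress response element, CCAAT and CCACG with 9 bases between, and for its second form, ATTGG and CCACG with 1 base between. The first was found in 6 of 42 promoters (14.3%) against 0.0806% of all 27305 and 0.146% of the 9620 of kept genes, and the second in 3 (7.14%) against 0.0549% and 0.104%. These elements were originally described in promoters of endoplasmic reticulum genes such as HSPA5, so their presence in this set is background rather than a result. Of the 9 genes with either form, 8 are chaperone and folding genes, 1 is a degradation gene and 0 belong to the translocon. The element was present in 7 of 23 promoters of genes that rose, 1 of 8 of genes that fell and 1 of 11 of genes that did not pass. The stretches that hold it are printed 5′ to 3′ on the strand of the gene, with the element in capitals, because the genes of this set with the same letters did not all move alike. On the reverse strand it reads as CGTGG and ATTGG, or as CGTGG and CCAAT. HYOU1 also has TGACGTGG, the UPR element, which overlaps the first of its other matches and is in capitals as well.
HSPA5 (chr9:125241371-125241429, minus strand, bases -86 to -28 from the start): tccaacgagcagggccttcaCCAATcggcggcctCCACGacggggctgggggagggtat
HSP90B1 (chr12:103930196-103930359, plus strand, bases -214 to -51 from the start): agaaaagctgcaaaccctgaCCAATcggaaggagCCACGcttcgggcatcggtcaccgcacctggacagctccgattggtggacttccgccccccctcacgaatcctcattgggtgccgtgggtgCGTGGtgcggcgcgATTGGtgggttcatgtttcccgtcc
CALR (chr19:12938364-12938422, plus strand, bases -245 to -187 from the start): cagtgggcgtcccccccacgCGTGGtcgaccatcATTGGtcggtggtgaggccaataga
CANX (chr5:179698758-179698816, plus strand, bases -171 to -113 from the start): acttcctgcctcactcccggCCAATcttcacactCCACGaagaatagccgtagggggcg
CRELD2 (chr22:49918534-49918592, plus strand, bases -100 to -42 from the start): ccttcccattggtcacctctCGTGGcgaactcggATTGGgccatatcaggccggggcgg
ERO1LB (chr1:236282163-236282208, minus strand, bases -250 to -205 from the start): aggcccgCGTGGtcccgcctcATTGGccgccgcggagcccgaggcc
HYOU1 (chr11:119057254-119057413, minus strand, bases -208 to -49 from the start): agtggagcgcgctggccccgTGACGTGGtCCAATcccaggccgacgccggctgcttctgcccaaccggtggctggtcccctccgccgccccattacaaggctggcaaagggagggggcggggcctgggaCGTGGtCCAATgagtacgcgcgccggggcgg
SDF2L1 (chr22:21642094-21642144, plus strand, bases -208 to -158 from the start): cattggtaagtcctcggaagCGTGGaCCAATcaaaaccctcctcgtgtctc

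Of the 6 genes with the first form 5 rose over both guides, by 0.21 for CRELD2 to 0.36 for ERO1LB, with HSPA5, HSP90B1 and CALR between them, and CANX, with the same letters, did not pass. The CRELD2 call was lost without any 1 of 4 libraries, as given above, and ERO1LB did not pass with sgCTRL alone (0.21, adjusted p = 0.280). HYOU1, with 2 copies of the second form, rose by 0.23, and SDF2L1, with 1, by 0.50. Of the 3 genes with the largest rises, MGC29506 and DNAJB9 had no match to either form in this window, which says only that these letters are not there, and DERL3 had no promoter entry. The UPR element, TGACGTGG, was found in 3 of 42 promoters, those of SEC62, DNAJC10 and HYOU1 (7.14% against 0.795% of all promoters and 0.915% of those of kept genes), and SEC62 fell while the other two rose. A match is a description of the sequence and not of a bound factor.

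Degradation genes made the largest changes in both directions. DERL3, a derlin of the channel that returns proteins to the cytosol and a known marker of secretory cells, was at 7.80 and 7.90 with sgCTRL and 8.15 and 7.77 with sgKLHL14 in DMSO and at 9.26 and 9.18 with sgCTRL and 9.06 and 9.19 with sgKLHL14 in ibrutinib. It rose by 1.27, or 2.41-fold (SE 0.088, adjusted p = 4.90e-10). The lowest ibrutinib library lay far above the highest DMSO library. Its relatives moved little, DERL1 by 0.12 without passing (adjusted p = 0.0534). DERL2 rose by 0.18 (adjusted p = 0.0187), a call lost without sgCTRL ibrutinib replicate 1 (0.0966) or sgKLHL14 DMSO replicate 2 (0.0599).

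The EDEM mannosidase-like proteins, which mark glycoproteins for removal, did not move together. EDEM1 was at 12.49 and 12.55 with sgCTRL and 12.44 and 12.50 with sgKLHL14 in DMSO and at 11.49 and 11.61 with sgCTRL and 11.65 and 11.70 with sgKLHL14 in ibrutinib, and fell by 0.88, to 0.543 of its DMSO level (SE 0.044, adjusted p = 4.21e-12). EDEM2 was at 8.79 and 8.89 with sgCTRL and 8.96 and 8.90 with sgKLHL14 in DMSO. In ibrutinib it was at 9.06 and 9.06 with sgCTRL and 9.21 and 9.24 with sgKLHL14. It rose by 0.26 over both guides (SE 0.066, adjusted p = 0.00301). EDEM2 passed with sgKLHL14 (0.30, limma adjusted p = 0.0173) and not with sgCTRL (0.22, adjusted p = 0.0758). EDEM1 was higher than EDEM2 per length in every group (956 against 239 normalised reads per kilobase in sgCTRL cells in DMSO, and 488 against 278 in ibrutinib). EDEM3 changed by 0.075 and did not pass (adjusted p = 0.308). OS9, a lectin that hands trimmed glycoproteins to the ubiquitin ligase, was at 12.07 and 12.03 with sgCTRL and 12.13 and 12.00 with sgKLHL14 in DMSO and at 12.38 and 12.42 with sgCTRL and 12.38 and 12.43 with sgKLHL14 in ibrutinib, and rose by 0.35 (adjusted p = 1.65e-06).

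Within the HRD1 ligase complex the enzyme rose and 2 of its partners fell. SYVN1, which encodes the ligase HRD1, was at 12.68 and 12.61 with sgCTRL and 12.69 and 12.61 with sgKLHL14 in DMSO and at 13.26 and 13.24 with sgCTRL and 13.27 and 13.40 with sgKLHL14 in ibrutinib, and rose by 0.64 (SE 0.043, adjusted p = 3.07e-10). SEL1L, the scaffold that stabilises HRD1, was at 12.55 and 12.56 with sgCTRL and 12.29 and 12.52 with sgKLHL14 in DMSO and at 12.09 and 12.15 with sgCTRL and 12.15 and 12.16 with sgKLHL14 in ibrutinib. It fell by 0.34 (adjusted p = 6.20e-06), and the nearest DMSO library was sgKLHL14 replicate 1. HERPUD1, which organises the complex, was at 12.16 and 12.13 with sgCTRL and 12.20 and 12.16 with sgKLHL14 in DMSO and at 11.58 and 11.62 with sgCTRL and 11.87 and 11.75 with sgKLHL14 in ibrutinib, and fell by 0.46 (SE 0.043, adjusted p = 4.60e-08). For all 3 genes the treatments did not overlap.

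HERPUD1 was the 1 gene that fell with an ER stress response element in its promoter, and the 1 gene of the set with a match to TGATGNAA, the core of the amino acid response element that ATF4 and CHOP can bind, found in 3.67% of all promoters and 1.66% of those of kept genes. Both are shown in capitals, the amino acid response core first and on the reverse strand.
HERPUD1 (chr16:56931946-56932055, plus strand, bases -196 to -87 from the start): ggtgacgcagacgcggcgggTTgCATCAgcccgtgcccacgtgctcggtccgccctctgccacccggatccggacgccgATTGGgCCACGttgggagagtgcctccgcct

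The 2 guides differed little in these genes. In DMSO 1 of 46 was higher in the libraries labelled sgKLHL14 and 0 were lower, where 0.782% and 0.862% of kept genes passed. In ibrutinib 1 was higher and 0 lower, where 1.59% and 0.790% passed. At an unadjusted p under 0.05, 8 of 46 differed in DMSO, where 13.8% of kept genes did, and 11 in ibrutinib, where 12.9% did. The differences leaned to 1 side in ibrutinib, where 40 of 46 were above 0 (median 0.097, against -0.0045 for all kept genes). They did so less in DMSO, where 34 were (median 0.044, against 0.003). Of 12533 kept genes 6078 were above 0 in ibrutinib and 6368 in DMSO. These are counts over genes measured in the same libraries and carry no test.

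MGC29506 was the gene that passed in DMSO, at 0.33 (SE 0.076, adjusted p = 0.0320), and it was higher by 0.26 in ibrutinib without passing (adjusted p = 0.0867). The DMSO call was lost without sgCTRL DMSO replicate 1 or 2, sgCTRL ibrutinib replicate 1 or 2, or sgKLHL14 DMSO replicate 1 (adjusted p of 0.058 to 0.42), with no level filter (0.191), with median scaling (0.0543) and with no variance trend (0.285). SEC11C was the gene that passed in ibrutinib, at 0.43 (SE 0.068, adjusted p = 0.000752), a call lost with no variance trend (0.105). Beside it stood HSP90B1 at 0.22 (adjusted p = 0.0578) and DNAJB9 at 0.49 (adjusted p = 0.113), which did not pass. The number that passed in ibrutinib ran from 0 to 5 over the alternatives, with 3 without sgKLHL14 DMSO replicate 1 or replicate 2.

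The difference between the 2 ibrutinib responses passed for 0 of 46 genes by limma and 0 by voom, against 0.0239% of all kept genes in either direction. At an unadjusted p under 0.05 there were 3 of 46, where 5.69% of kept genes were, a share that does not set these genes apart. They were SEC11C, DERL2 (0.26, SE 0.12, unadjusted p = 0.0413) and HERPUD1 (0.18, SE 0.086, unadjusted p = 0.0473). The standard error of a difference between responses ran from 0.078 (PDIA3) to 0.22 (DNAJB9). The SEC11C difference (0.28, SE 0.096, limma adjusted p = 0.718) did not pass after adjustment over all kept genes. Whether 2 libraries a group can detect differences of that size was not tested.

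**Figure D4:**
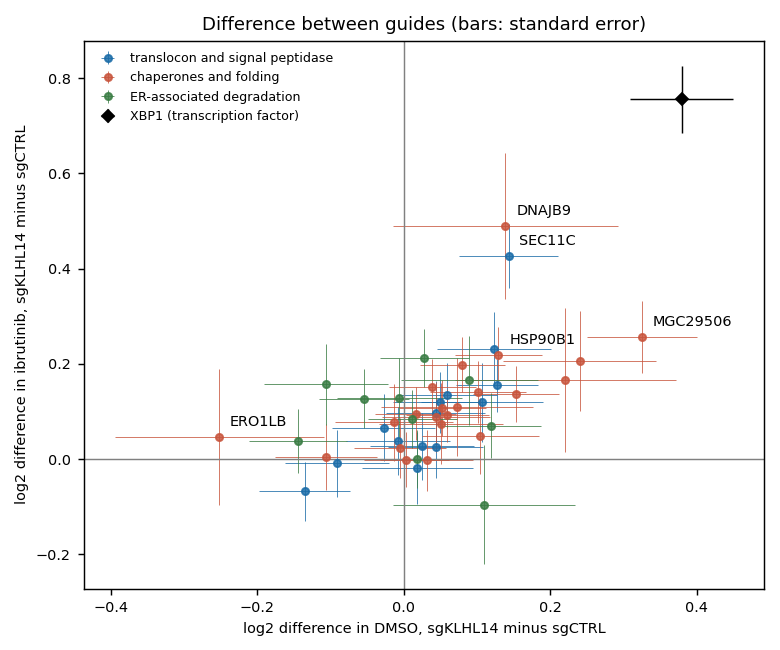
Difference between guides in log2 level in DMSO (x axis) and in ibrutinib (y axis) for the 46 genes by role, with standard errors as bars, and XBP1 as a black diamond. Most genes lie above 0 on the y axis, 40 of 46, where 6078 of 12533 kept genes do. XBP1 lies apart from the 46 at 0.38 and 0.76.

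The sensors and transcription factors that control these genes moved in 2 directions. XBP1, which drives many of them, was at 10.44 and 10.58 with sgCTRL and 10.94 and 10.84 with sgKLHL14 in DMSO, and at 10.71 and 10.74 with sgCTRL and 11.51 and 11.44 with sgKLHL14 in ibrutinib. It rose by 0.40 in ibrutinib over both guides (adjusted p = 1.60e-06) and was higher in the libraries labelled sgKLHL14 by 0.38 in DMSO (adjusted p = 0.00657) and by 0.76 in ibrutinib (adjusted p = 1.79e-06). The call in DMSO was lost without sgCTRL DMSO replicate 1 (0.146) or sgKLHL14 DMSO replicate 1 (0.0881), with no level filter (0.0871) and with no variance trend (0.167). Its difference between responses, 0.38 (adjusted p = 0.477), did not pass. The table counts reads per gene and does not give the splicing of XBP1 by IRE1. ERN1, which encodes IRE1, rose by 0.43 over both guides (adjusted p = 0.000259). It passed with sgKLHL14 (0.56, limma adjusted p = 0.000808) and not with sgCTRL (0.29, adjusted p = 0.0601).

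On the ATF6 side the protease moved more than the factor. MBTPS1, which cleaves ATF6 in the Golgi, rose by 0.62 (adjusted p = 2.88e-09) and ATF6B by 0.42 (adjusted p = 7.16e-07). ATF6 itself changed by 0.02 (adjusted p = 0.772) and the second protease, MBTPS2, by -0.0075 (adjusted p = 0.931), neither passing. Of the related factors, CREB3L2 rose by 0.21 over both guides (adjusted p = 0.00358, and 0.0612 with no variance trend). Without sgKLHL14 DMSO replicate 1 its change was 0.14. CREB3L2 passed with sgKLHL14 (0.30, limma adjusted p = 0.00457) and not with sgCTRL (0.12, adjusted p = 0.258). CREB3 changed by -0.024 (adjusted p = 0.753).

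In the PERK arm the sensor was higher and 3 downstream genes were lower. EIF2AK3, which encodes PERK, rose by 0.18 over both guides (adjusted p = 0.00942). It passed with neither guide alone (0.18 with sgCTRL, limma adjusted p = 0.0898, and 0.19 with sgKLHL14, adjusted p = 0.0611). ATF4, the factor that PERK and the amino acid sensor GCN2 both raise, was at 13.49 and 13.45 with sgCTRL and 13.63 and 13.55 with sgKLHL14 in DMSO and at 12.61 and 12.62 with sgCTRL and 12.77 and 12.67 with sgKLHL14 in ibrutinib, and fell by 0.87 (SE 0.041, adjusted p = 2.42e-12). DDIT3, which encodes CHOP, fell by 0.78 (adjusted p = 4.34e-07). PPP1R15A, the phosphatase subunit GADD34, fell by 0.86 (adjusted p = 1.97e-11), and it was higher in the libraries labelled sgKLHL14 by 0.33 in DMSO (adjusted p = 0.0118) and 0.51 in ibrutinib (adjusted p = 0.000117). The PPP1R15A call in DMSO was lost without sgCTRL DMSO replicate 2 or sgKLHL14 DMSO replicate 1 (0.125 and 0.168) and with no level filter (0.140), and both calls with no variance trend (0.244 in DMSO, 0.0572 in ibrutinib). In total 6 of these 12 sensors and factors rose and 3 fell over both guides, where 27.0% and 25.4% of kept genes did.

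**Figure D5:**
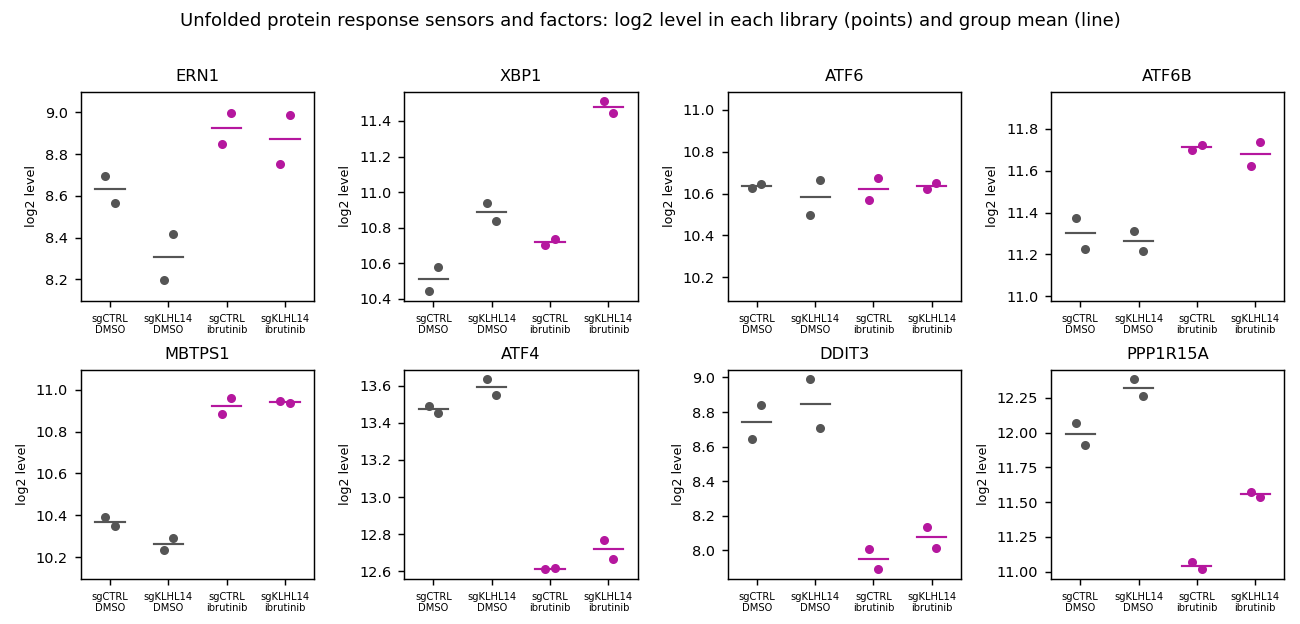
Log2 level (y axis) of 8 sensors and factors of the unfolded protein response in each library by group (x axis), DMSO in grey and ibrutinib in magenta, with lines at the group means. XBP1 is highest in the sgKLHL14 ibrutinib libraries, ATF6 is level, MBTPS1 and ATF6B are higher in ibrutinib and ATF4, DDIT3 and PPP1R15A are lower.

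The genes around the 46 on the secretory route gave a mixed picture over both guides. Beside each count below, 27.0% of all kept genes rose and 25.4% fell in that comparison. Those named as higher or lower had the smallest p of their list in their direction. Of 9 genes of the signal recognition particle, its receptor and TRAM1, 3 rose and 3 fell. Those that rose were SRP68 (0.34, adjusted p = 1.72e-06), TRAM1 (0.26, adjusted p = 3.02e-05) and SRPR (0.29, adjusted p = 3.08e-05). TRAM1 passed with sgKLHL14 (0.42, limma adjusted p = 1.09e-05) and not with sgCTRL (0.093, adjusted p = 0.221). Those that fell were SRP54 (-0.18, adjusted p = 0.00185), SRP72 (-0.16, adjusted p = 0.00346) and SRP14 (-0.19, adjusted p = 0.00860). The SRP14 change was -0.12 (adjusted p = 0.0723) without sgCTRL DMSO replicate 1, and its call was also lost without sgKLHL14 ibrutinib replicate 2 (0.0670), with no level filter (0.0754) and with no variance trend (0.102). Of 10 kept genes of the oligosaccharyltransferase, which attaches N-glycans, 3 rose and 0 fell, among them RPN2 (0.16, adjusted p = 0.00275) and OSTC (0.20, adjusted p = 0.00744). With the guides apart, 3 of the 10 rose with sgCTRL and 0 with sgKLHL14, where 18.1% and 19.9% of kept genes did. Without sgCTRL DMSO replicate 1 the OSTC change was 0.12 (adjusted p = 0.0601), and with no variance trend its adjusted p was 0.0703. TUSC3 was left out by the level filter. Of 6 genes that trim or re-add glucose and mannose, 3 rose, among them MAN1B1 (0.40, adjusted p = 2.79e-05) and MOGS (0.26, adjusted p = 0.00169), and UGGT2 fell by 0.40 (adjusted p = 0.000251). UGGT1, the main folding sensor of glycoproteins, changed by -0.004 (adjusted p = 0.959).

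Of 12 further folding and cargo proteins 5 rose and 0 fell, among them TMX3, a membrane disulfide isomerase (0.48, adjusted p = 3.90e-07), and PPIB, the prolyl isomerase cyclophilin B (0.42, adjusted p = 5.15e-07). In the machinery downstream of HRD1 2 of 15 genes rose and 0 fell (median 0.057). For these lists too, the background over both guides was 27.0% of kept genes higher and 25.4% lower. UBE2J1, the ubiquitin-conjugating enzyme that serves HRD1, was at 12.15 and 12.30 with sgCTRL and 12.51 and 12.48 with sgKLHL14 in DMSO and at 13.03 and 13.01 with sgCTRL and 13.29 and 13.23 with sgKLHL14 in ibrutinib, and rose by 0.78 (adjusted p = 1.94e-11). NGLY1, which strips glycans from extracted proteins, rose by 0.26 (adjusted p = 3.02e-05). VCP, the extraction motor, changed by 0.057 and did not pass (adjusted p = 0.242). Of 11 genes of the COPII coat, which carries cargo to the Golgi, 4 rose and 0 fell, among them SEC24D (0.47, adjusted p = 8.42e-08) and SEC24C (0.36, adjusted p = 3.47e-07).

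Between guides, 2 of 12 sensors and factors were higher in the libraries labelled sgKLHL14 in each treatment. The count was 1 of 9 in the signal recognition particle list and 1 of 15 downstream of HRD1 in each treatment. It was 0 in the oligosaccharyltransferase, glycan-trimming, further folding and COPII lists (10, 6, 12 and 11 kept genes). In every list 0 were lower. Of all kept genes 0.782% were higher and 0.862% lower in DMSO, and 1.59% and 0.790% in ibrutinib. Besides XBP1 and PPP1R15A, UBE2J1 was higher by 0.27 in DMSO (adjusted p = 0.0283) and 0.24 in ibrutinib (adjusted p = 0.0464). SRPRB, a subunit of the receptor for the signal recognition particle, was higher by 0.29 in DMSO (adjusted p = 0.0398), and TRAM1 by 0.25 in ibrutinib (adjusted p = 0.0227). Each of these calls for UBE2J1, SRPRB and TRAM1 rested on few libraries. UBE2J1 in DMSO was lost without any 1 of 4 libraries (adjusted p of 0.068 to 0.38), sgCTRL DMSO replicate 1, sgCTRL ibrutinib replicate 1 or 2, and sgKLHL14 DMSO replicate 1. In ibrutinib, UBE2J1 (0.10 to 0.42) and TRAM1 (0.095 to 0.29) were each lost without any 1 of the 4 ibrutinib libraries. SRPRB was lost without any 1 of the DMSO libraries or of the sgCTRL ibrutinib libraries (0.073 to 0.28). Under other settings all of them were lost with no variance trend (0.15 to 0.28). The UBE2J1 and SRPRB calls were also lost with no level filter (0.14 to 0.18), UBE2J1 in ibrutinib with the stricter filter, quantile scaling and voom (0.052 to 0.064), and SRPRB with quantile or median scaling and with only the 2 groups compared (0.055 to 0.059).

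Per length, HSP90B1 and CALR stood highest of the 46 in every group, at 8809 ± 246 and 8869 ± 790 normalised reads per kilobase (SD, n = 2) in sgCTRL cells in DMSO, a difference within their spread. SEC61B followed at 6406 ± 342 and CANX at 5430 ± 39.9. HSPA5 was at 2503 ± 65.0, close to PDIA3 at 2498 ± 52.6, and rose to 3152 ± 7.72 in ibrutinib. ERO1LB (37.1 ± 0.254) and DNAJB9 (64.9 ± 16.6) were lowest. Lengths are those of the longest GENCODE transcript that carries the deposited accession, so a gene expressed mostly as a shorter transcript is placed too low. In the RefSeq annotation 11 of 46 genes overlap another gene of the table, among them DERL3 (SMARCB1), SYVN1 (MRPL49), SEC61A1 (RUVBL1), TXNDC5 (BMP6) and PDIA6 (ATP6V1C2), and whether the counting used strand is not given in the sources used here, so reads of such pairs may be mixed.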

How the data were processed

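RNA of 8 TMD8 libraries was sequenced as read pairs from a stranded poly(A) kit, per the labels' protocols. The submitters' processing notes name bcl2fastq, the aligner STAR, the counter HTSeq and the build hg19. Versions, annotation and strand setting were not given in the sources used here. The deposited values are other than plain counts: the authors deposited log2 of reads times a factor of each library, on a log2 scale, with a row of read totals that was kept out of all tests. Each value came out as a whole number of reads (100%, tolerance 6e-04 on the log2 scale), 1 read being worth 1.16 to 2.19. Columns of other samples numbered 0. Depth was 12333876 to 23467110 reads, and low genes carry more counting error.

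Genes with a mean level of at least 4.20 (12533 of 25066) entered a limma fit of the 4 group means (version 3.58.1 in R 4.3.3, variance trend on, residual degrees of freedom 4, prior 14.9). A call is a Benjamini-Hochberg adjusted p under 0.05 over all of them. No pseudocount was added. The fit was tested on simulated data. Samples were grouped by the guide and treatment in their titles. The members, roles and lists were chosen with earlier results of these data known. Named with values in every library are, per role, up to 4 members that rose and 4 that fell with the smallest p over both guides, members called between guides, relatives that moved in opposite directions, and HSPA5, XBP1 and MGC29506. Of the other lists the genes with the 2 smallest p in each direction are named, with UGGT1, VCP, SRPR and SRP14 added after their values were seen. Alternatives were other filters, scalings, priors, a pseudocount of 16, a replicate block, voom on the recovered reads, fits of only the groups compared, and leaving out each library. Promoters come from RefSeq on GRCh38.p14, not the build of the files.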

Additional observations from a re-analysis of the deposited data

How the results depend on the processing

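Over both guides the counts of genes that rose (20 to 27) and fell (8 to 9) stayed within 1.5 times the reported 25 and 8 when any 1 library was left out. With sgCTRL the count that rose ran from 9 to 18 and that of genes that fell from 7 to 8, and with sgKLHL14 they ran from 15 to 22 and from 4 to 8. Between guides in DMSO, 0 or 1 gene was higher and 0 or 1 lower, and in ibrutinib 1 to 3 were higher and 0 lower. In DMSO 0 genes were higher, in place of 1, with no level filter, median scaling or no variance trend. In ibrutinib 0 were higher with no variance trend, 2 with a robust prior or with voom, and 5 with only the 2 groups compared. The causes were not tested, except that a left-out library also lowers the number of samples. The replicate block gave 5 genes higher in ibrutinib in place of 1. Libraries with the same number deviated with correlations of -0.055 to 0.12, so the numbers are not taken as pairs. Of 195 single-gene values, 130 passed, and 92 of these passed in the same direction under every alternative run on them. The only changes of sign past the standard error were in genes that did not pass. Leaving out single libraries, SSR3 with sgCTRL ran from -0.17 to 0.024, EDEM3 with sgCTRL from -0.13 to 0.14, DNAJB11 with sgKLHL14 from -0.08 to 0.20 and UGGT1 over both guides from -0.077 to 0.069. Depth limits the genes with fewest reads, and 2 libraries a group limit all of them.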
